A study of Mus musculus with 5 samples.

Results

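The immediate early genes Fos, Fosb, Jun, Junb, Atf3, Egr1, Nr4a1, Ier2, Ier3 and Dusp1 were followed through RNA-Seq libraries of mouse neural stem/progenitor cell (NSPC) cultures. The members were chosen by gene symbol, and all 10 were found among the 12588 symbols or identifiers of the table, each with 1 listed transcript. The series compared NSPCs with and without the p75 neurotrophin receptor (p75NTR), a receptor for neurotrophins and their precursors that is encoded by Ngfr. RNA-Seq covered 2 libraries labelled WT (genotype p75NTR+/+, replicates 1 and 4, here WT 1 and WT 4) and 3 labelled p75NTR-/- (replicates 1, 2 and 4, here p75KO 1, p75KO 2 and p75KO 4). All were of strain C57BL/6J, received no treatment and grew in proliferation medium with FGF-2 and EGF at 20 ng/ml each, growth factors that act through the MAP kinase cascade. The labels give the cells as embryonic (E12.5, with the WT cells from mutant littermates), whereas the methods of the study describe adult cells of the subventricular zone. The cultures were bulk samples, in which more cells of a type and more RNA per cell cannot be told apart. The study speaks of 4 replicas from independent preparations, whereas the libraries here carry the numbers 1, 2 and 4, and number 2 under 1 label only. The sources name no litter, day or batch for these numbers, so that p-values measure the spread between these libraries only.

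Immediate early genes are transcribed within minutes of a stimulus, without the need for new protein, because the factors that switch them on (SRF with its ternary complex partners, and CREB) are already present and are activated by phosphorylation. Most of their products are transcription factors that start a later wave of genes, and others are inhibitors that end the signal. Their mRNAs are short-lived, and in neural cells they are known to respond to growth factors, to neuronal activity and to stress.

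Sequence upstream of 5 members is shown here because the factors that switch immediate early genes on bind elements upstream of the start of transcription. Promoters of 8 of the 10 members were matched by symbol in RefSeq (GRCm38.p6), while Egr1 and Ier2 had no entry. Each sequence is read 5′ to 3′ on the strand of the gene, from position -250 to position -1 relative to the RefSeq start of transcription at 0, and for Dusp1 to position -38, so that no more than 10 bases of the listed transcript, which begins further upstream, are included. The listed transcript of Atf3 begins at position -7, so that the element capitalised in Atf3 lies at its very start. The searched element TGACG, the short form of the cAMP response element to which CREB and ATF proteins bind, is in capitals where it occurs on either strand (on the opposite one as CGTCA), and so is the full form TGACGTCA, which contains it. The sequence of Jun is shown as a promoter without a match.
Fos, chr12:85473640-85473889, plus strand: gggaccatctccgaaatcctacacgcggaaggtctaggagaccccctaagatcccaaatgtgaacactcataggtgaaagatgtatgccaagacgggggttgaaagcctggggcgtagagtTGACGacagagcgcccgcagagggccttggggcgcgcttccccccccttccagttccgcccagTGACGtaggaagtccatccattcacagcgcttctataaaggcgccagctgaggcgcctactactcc
Junb, chr8:84978749-84978998, minus strand: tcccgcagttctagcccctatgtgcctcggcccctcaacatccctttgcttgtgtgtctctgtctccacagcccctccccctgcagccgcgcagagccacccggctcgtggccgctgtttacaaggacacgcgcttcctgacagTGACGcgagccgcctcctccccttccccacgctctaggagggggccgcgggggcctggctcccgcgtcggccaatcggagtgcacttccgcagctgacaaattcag
Atf3, chr1:191183334-191183583, minus strand: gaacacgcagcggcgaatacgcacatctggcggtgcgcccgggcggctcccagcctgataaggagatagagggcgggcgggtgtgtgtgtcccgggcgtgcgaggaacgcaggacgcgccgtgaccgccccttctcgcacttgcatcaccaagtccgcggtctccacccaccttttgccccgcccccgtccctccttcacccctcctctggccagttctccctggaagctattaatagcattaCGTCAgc
Dusp1, chr17:26508510-26508722, minus strand: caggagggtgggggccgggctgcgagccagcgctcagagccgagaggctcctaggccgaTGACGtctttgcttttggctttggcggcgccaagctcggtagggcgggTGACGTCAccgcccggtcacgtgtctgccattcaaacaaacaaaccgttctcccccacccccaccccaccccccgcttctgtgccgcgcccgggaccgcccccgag
Jun, chr4:95052223-95052472, minus strand: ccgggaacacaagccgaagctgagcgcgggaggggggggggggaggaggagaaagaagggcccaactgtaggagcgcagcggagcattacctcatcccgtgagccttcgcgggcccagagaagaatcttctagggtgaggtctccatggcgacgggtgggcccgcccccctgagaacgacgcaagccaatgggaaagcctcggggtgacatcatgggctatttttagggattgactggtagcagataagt

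The short element TGACG lay in 6 of the 8 promoters, those of Atf3, Fosb, Junb, Fos, Nr4a1 and Dusp1, and in 20.8% of all 32851 promoters of the same window (250 bases before to 50 after the start). In Fos it began at positions -129 and -66, in Junb at -106, in Fosb at -60 and in Atf3 at -7. Of the 8, Dusp1 alone held the full element TGACGTCA, at position -143, against 1.79% of all promoters. Neither the CArG box, the core of the serum response element (1.63% of all promoters), nor the AP-1 site TGACTCA (5.20%) was found in the 8 windows, and sequence further from the start was not searched. For Nr4a1 the RefSeq start lies 12577 bases from the start of the listed transcript, so that its window belongs to another transcript of the gene.

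The libraries held between 11688211 and 14452396 counts, and values are given as normalized counts (counts divided by the size factor of the library), of which 1 count was worth between 0.981 and 1.20. Ngfr RNA, the check of the genotype, was lower in the libraries labelled WT, the reverse of the order for a transcript lost in the mutant. It had 0.98 and 2.08 normalized counts in WT 1 and WT 4. In p75KO 1, p75KO 2 and p75KO 4 it had 9.89, 141 and 251. Its adjusted p was 0.93 in limma and 0.0037 in DESeq2. Whether the mutant allele still yields Ngfr RNA was not tested, so that the groups below are named only by how the libraries were labelled. The labelled cell type was checked by its markers, and all 8 progenitor markers, Nes and Sox2 among them, were listed, with summed levels between 67699 and 99623 normalized counts, carried mainly by Fabp7, Vim and Nes. A gene counted as called when limma gave an adjusted p under 0.05 (Benjamini-Hochberg over all genes) together with a difference of 1.5-fold or more and a mean of at least 50, which 9 of the 10 members reached. By this rule 1 of 12588 genes (0.00794%) was called between the labels, the predicted gene Gm15446, which was named after its values were seen. It had 0 normalized counts in WT 1 and WT 4 and 182, 183 and 150 in p75KO 1, p75KO 2 and p75KO 4.

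AP-1 is a dimer of a Fos and a Jun protein, or of Jun proteins alone, that carries growth factor and stress signals to its target genes. Its inducible subunits were higher in the libraries numbered 4 of both labels than in the other 3 libraries, and no subunit was called between the labels. Fos (chr12:85473890-85477273, plus strand, 4 exons), which binds DNA only with a Jun partner, was at 479.9 normalized counts in WT 1, 872 in WT 4, 331 in p75KO 1, 467 in p75KO 2 and 1209 in p75KO 4. WT 4 and p75KO 4 stood above the other 3 libraries, which lay side by side across the labels. The log2 difference of Fos, p75KO minus WT, was -0.18 ± 0.63 (SE, limma adjusted p = 0.98), and the mean of the libraries numbered 4 was 2.44 times that of the others.

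Jun (chr4:95049034-95052222, minus strand, 1 exon), the partner that can also bind DNA as a homodimer, was at 564 normalized counts in WT 1, 1939 in WT 4, 725 in p75KO 1, 806 in p75KO 2 and 2206 in p75KO 4. Again the numbers and not the labels set the values apart, with a 2.97-fold higher mean under number 4 and a label difference of 0.06 ± 0.74 (SE, log2; limma adjusted p = 0.99). Junb (chr8:84976910-84978718, minus strand, 1 exon), a weaker activator that can hold Jun in check, was at 87.3, 369, 92.0, 112 and 535 normalized counts in the same order. The 3 low libraries of Junb lay between 87.3 and 112 normalized counts, whereas both libraries numbered 4 lay at least 3.31 times above the highest of them. Its label difference was -0.03 ± 1.00 (SE, log2; limma adjusted p = 1.00).

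Fosb (chr7:19302696-19310051, minus strand, 4 exons), whose product shares the partners of Fos, was close to the limit of detection. It had 0 counts in WT 1, 11 in WT 4, 0 in p75KO 1, 1 in p75KO 2 and 7 in p75KO 4, where a count of 0 allows up to 3 counts. Its counts above 3 were thus found in the libraries numbered 4, but its mean was under 50 and no fold change is given. The log2 difference between the labels, on the log2(value + 1) scale, was -0.42 ± 1.38 (SE, limma adjusted p = 0.97).

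Atf3 (chr1:191170296-191183340, minus strand, 4 exons), a stress-induced member of the ATF/CREB family that represses many targets as a homodimer, had the largest ratio of highest to lowest library, 17.4, of the 9 members with a mean of at least 50. It was at 14.7 normalized counts in WT 1, 213 in WT 4, 46.5 in p75KO 1, 16.8 in p75KO 2 and 257 in p75KO 4. The lowest value under number 4 was 4.59 times the highest of the other 3, and WT 1 and p75KO 2, of different labels, were nearly equal. Between the labels the log2 difference was 0.05 ± 1.57 (SE, limma adjusted p = 1.00). The spread of Atf3 within each label, with an SD of 140.4 around a mean of 114 (n = 2) for WT and of 131 around 107 (n = 3) for p75KO, was larger than either mean.

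Nr4a1 (chr15:101254269-101274795, plus strand, 8 exons), an orphan nuclear receptor that works without a known ligand, was at 240.4 normalized counts in WT 1, 494 in WT 4, 209 in p75KO 1, 285 in p75KO 2 and 666 in p75KO 4. Its order of libraries resembled that of Fos, with a 2.37-fold higher mean under number 4 and a label difference of -0.02 ± 0.60 (SE, log2; limma adjusted p = 1.00). Ier3 (chr17:35821684-35822923, plus strand, 2 exons), a stress-induced protein that modulates cell survival, was at 94.2, 514, 127, 139 and 568 normalized counts. Here too the libraries numbered 4 lay apart, by 4.51-fold in the mean, while the labels differed by -0.03 ± 1.00 (SE, log2; limma adjusted p = 1.00).

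Dusp1 (chr17:26505590-26508519, minus strand, 4 exons), a nuclear phosphatase that switches off MAP kinases and is the inhibitor among the members, varied less. It was at 122 normalized counts in WT 1, 212 in WT 4, 169 in p75KO 1, 169 in p75KO 2 and 221 in p75KO 4. The libraries numbered 4 were again above the rest, but by 1.41-fold in the mean, and WT 1 was below the other libraries. The log2 difference between the labels was 0.20 ± 0.30 (SE, limma adjusted p = 0.93).

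Egr1 and Ier2 departed from this pattern. Egr1, a zinc finger factor (transcript with 2 exons) that is a direct target of the MAP kinase cascade, was at 1471 normalized counts in WT 1, 3451 in WT 4, 3511 in p75KO 1, 3480 in p75KO 2 and 3867 in p75KO 4. WT 1 alone was low, and the other 4 libraries lay close together whatever their label or number. Ier2 (chr8:84661331-84662852, minus strand, 1 exon), a short nuclear protein that is induced by growth factors, was at 99.1, 113, 162, 196 and 120.4 normalized counts in the order used above. p75KO 1 and p75KO 2 were the high libraries of Ier2, and both libraries numbered 4 lay under them.

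Egr1 and Ier2 were also the members in which every library labelled p75KO was above both labelled WT, 2 of the 9 members with a mean of at least 50, while 7.76% of all 10786 genes with such a mean showed this order and 0 members showed the reverse one. For Egr1 the log2 difference was 0.68 ± 0.39 (SE, limma adjusted p = 0.93), which was 0.07 without WT 1 and 1.30 without WT 4. For Ier2 it was 0.56 ± 0.26 (SE, limma adjusted p = 0.93). Neither passed the test, and in both the p75KO library closest to the WT values, p75KO 2 for Egr1 and p75KO 4 for Ier2, exceeded WT 4 by little.

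**Figure D1:**
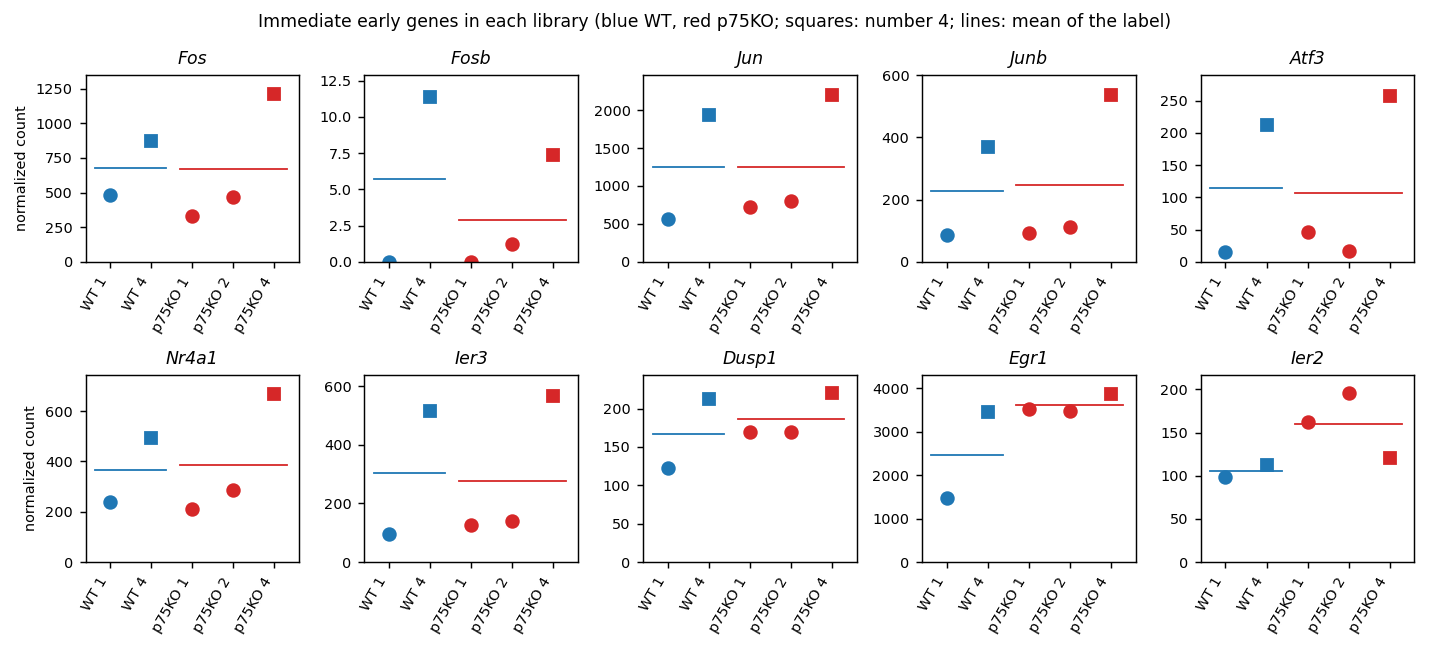
Normalized count of each immediate early gene (vertical axes, linear from 0) in the 5 libraries, with WT in blue, p75KO in red, squares for libraries numbered 4 and lines for the mean of a label. In 8 of the 10 panels both squares lie above all circles, whereas in Egr1 WT 1 is low alone and in Ier2 p75KO 1 and p75KO 2 are highest.

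The series was designed to compare NSPCs by p75NTR genotype, and since Ngfr RNA was lower under the label WT the values here compare the labels only. None of the 10 members was called in limma, none was called in DESeq2, and of the 9 that edgeR tested none was called, and in each of these tests 0 members had an unadjusted p under 0.05, against 262 of 12588 genes in limma. The median log2 difference of the members was 0.02 and that of all genes was 0.00. Fitted on single transcripts, where 0.0135% of 22227 were called, the members again gave 0 calls. An exact permutation test of a single gene could not have reached 0.05 either, since 2 against 3 libraries allow 10 splits and a one-sided p of 0.1 at best. The standard errors, between 0.26 for Ier2 and 1.57 for Atf3 on the log2 scale, show what was measurable, and for Atf3, Fosb, Junb and Ier3 they reached 1.00 or more.

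Within a replicate number the label difference was taken between 1 library and 1 library, as a description. Within number 4, p75KO was above WT in 9 of the 9 members with a mean of at least 50, by between 1.04-fold for Dusp1 and 1.45-fold for Junb, and 49.4% of all such genes were higher in p75KO 4 than in WT 4. Fos was 1.39-fold and Nr4a1 1.35-fold higher in p75KO 4. Within number 1 p75KO exceeded WT most for Atf3, by 3.16-fold, and for Egr1, by 2.39-fold. Fos and Nr4a1 lay the other way, at 0.691 and 0.868 of WT 1. These ratios have no replicate check.

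**Figure D2:**
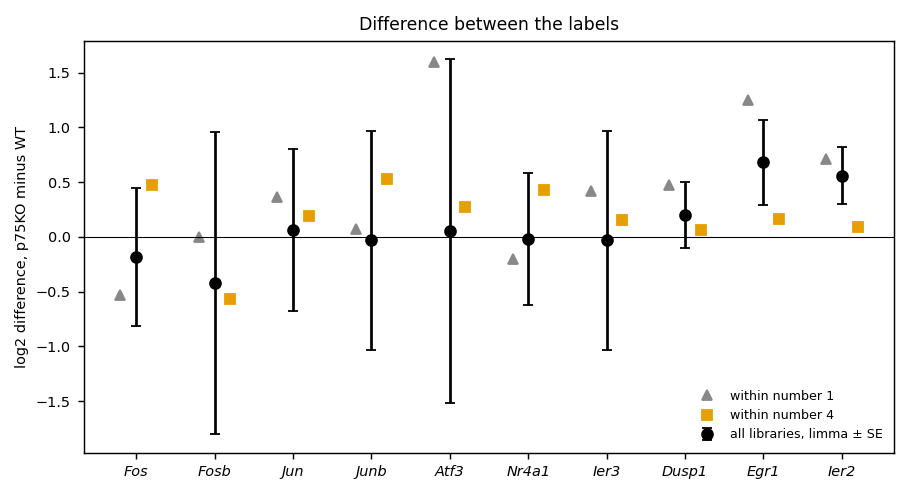
Difference between the labels for each immediate early gene (vertical axis, log2 of p75KO over WT), with black points for the limma fit on all libraries ± SE, grey triangles for p75KO 1 against WT 1 and orange squares for p75KO 4 against WT 4. All squares but that of Fosb lie above 0, and the black points of 7 genes lie within 0.25 of 0 with wide errors.

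The libraries numbered 4 stood above the other 3 in 7 of the 9 members with a mean of at least 50, those other than Egr1 and Ier2, and this order was seen in 23.0% of all 10786 such genes. In 6 members, all but Dusp1 of the 7, the mean under number 4 was also at least 1.5 times that of the others, as in 7.76% of all genes. The same order was seen within each label. WT 4 exceeded WT 1 by 14.5-fold in Atf3, 5.45-fold in Ier3, 4.23-fold in Junb and 3.44-fold in Jun, and p75KO 4 exceeded the mean of p75KO 1 and p75KO 2 by 8.11-fold, 4.27-fold, 5.25-fold and 2.88-fold. No test was made, because the number was known from earlier results to stand apart, and what the number stands for is not given.

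WT 1 also stood apart, as the lowest of the 5 libraries in 7 of the 9 members, while it was the lowest in 33.3% of all genes. In Fos and Nr4a1 the lowest was p75KO 1. The mean of the other 4 libraries was 9.06 times the WT 1 value in Atf3, 3.58 times in Ier3, 3.17 times in Junb, 2.51 times in Jun and 2.43 times in Egr1. Without WT 1 the libraries numbered 4 were above the rest in the same count of members, 8 of 10 with Fosb included. Leaving a library out of the rest cannot lower this count, so that it is no check of the order.

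Some markers of the progenitors and of other cell types also differed by number. The progenitor marker Hes5, a Notch target, was at 546, 25.0, 43.5, 222 and 30.6 normalized counts in WT 1, WT 4, p75KO 1, p75KO 2 and p75KO 4, lowest in both libraries numbered 4. Of the astrocyte markers 6 of 6 were listed, and 2 of them were above in both libraries numbered 4, near the 23.0% of all genes, Gfap with 680.3 and 746 normalized counts against 241, 11.9 and 1.20 in WT 1, p75KO 1 and p75KO 2, and Aqp4. S100b had a lower mean under number 4 (0.502 of the others), and Aldh1l1, Slc1a2 and Gja1 were in neither order. The summed astrocyte level was 30014 and 33505 under number 4 and between 19518 and 33667 in the other libraries. Of the oligodendrocyte lineage markers 5 of 7 were listed, and their sum was 2347 and 2376 under number 4 against 4014 to 5793 elsewhere. The microglial list had 1 of 8 markers listed, Cd68, at 160.2 and 227 under number 4 and 37.6 to 55.3 elsewhere, and the endothelial list 2 of 6, of which Flt1 was at 213 and 242 against 30.7 to 33.6 and Kdr at 37.5 and 42.3 against 38.3 to 62.3. Of the fibroblast list 1 of 6 was listed, with sums between 10.9 and 37.3, of the neuronal list 2 of 6, with 248 to 356, and of the blood list 0 of 6. The part of these markers in the levels of the immediate early genes was not tested.

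Other immediate early genes followed the members in part. Of 33 listed by name 32 were found, 28 with a mean of at least 50, and 18 of these were above in both libraries numbered 4 (23.0% of all genes) and 0 below (22.0% of all genes). The median log2 ratio of number 4 over the others was 0.67 in this list, 1.29 in the members and -0.01 over all genes. By way of example, named after their values were seen, the kinase gene Sik1 was at 35.3, 228, 28.7, 61.3 and 259.9 normalized counts in WT 1, WT 4, p75KO 1, p75KO 2 and p75KO 4, and Tiparp, an ADP-ribosyltransferase, at 1535, 3045, 913, 965 and 3553. None of the list was called between the labels (median log2 difference 0.05).

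A further order was seen in Arc and Plk2, which had the largest label differences of this list among genes with a mean of at least 50. Arc, which shapes synapses through glutamate receptor turnover, was at 39.2, 176, 349, 234 and 170.1 normalized counts, and Plk2, a kinase of the polo family, at 725, 1426, 3337, 2075 and 1396. Both were lowest in WT 1, highest in p75KO 1 and intermediate under number 4, unlike Fos, Jun or Atf3. Their label differences of 1.52 ± 0.70 and 1.07 ± 0.48 (SE, log2) were not called. In all, 6 of the 28 genes were highest in p75KO 1, as were 2377 of all 10786 genes with such a mean. In p75KO 4 15 of the 28 were highest, against 1990 of the 10786, and it was the highest library for 8 of the 9 members.

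**Figure D3:**
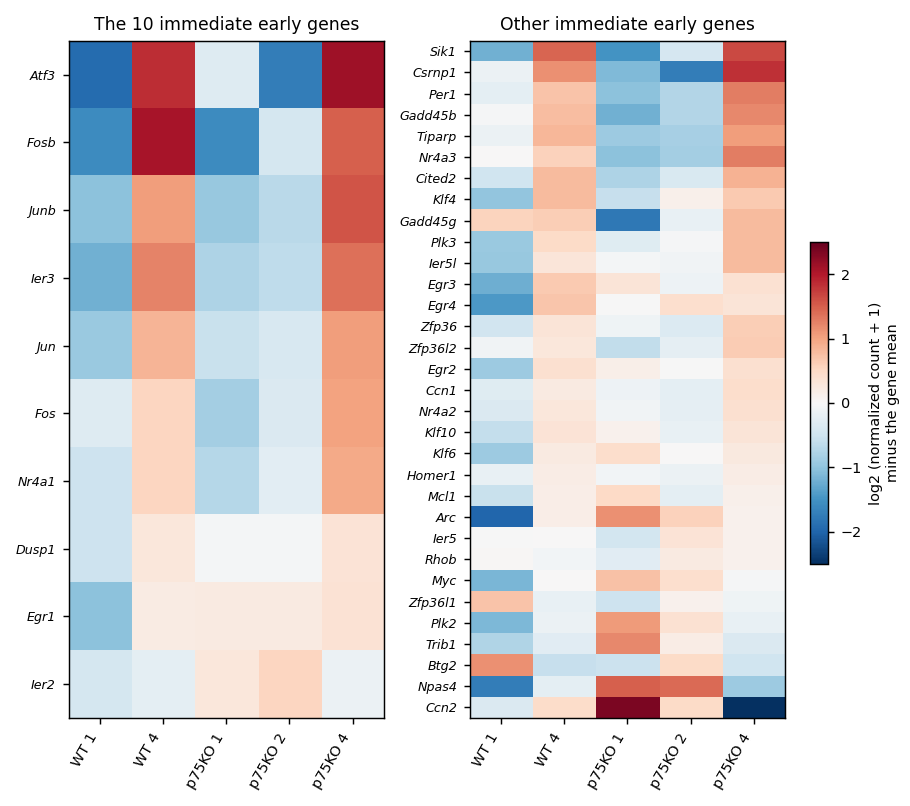
Profiles over the 5 libraries (columns) of the 10 members (left) and 32 other immediate early genes (right), as log2(normalized count + 1) less the mean of the gene, blue for low and red for high. The columns WT 4 and p75KO 4 are red for the upper rows of both panels. Of the lowest rows on the right, Plk2, Trib1, Npas4 and Ccn2 are highest in p75KO 1, and Btg2 and Zfp36l1 in WT 1.

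In the other genes of the AP-1 family the order of the libraries differed by gene. Fosl2, a Fos protein that is induced later and lasts longer, was at 199 normalized counts in WT 1, 908 in WT 4, 52.4 in p75KO 1, 99.7 in p75KO 2 and 1126 in p75KO 4. Its profile had the same 2 high libraries as Fos and a label difference of -1.23 ± 1.48 (SE, log2). Mafg, the other gene named from this list by its label difference at a mean of at least 50 and a small Maf protein without an activation domain, was at 88.3, 119.6, 151, 177 and 119, with 0.51 ± 0.25. In all, 9 of 11 genes were listed, 6 with a mean of at least 50, 3 of them were above in both libraries numbered 4 (23.0% of all genes), and 0 were called between the labels.

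Genes that act upstream of the members gave counts near those of all genes, of which 23.0% were above and 22.0% below the other libraries under number 4. Of the transcription factors that switch immediate early genes on, Srf, Creb1 and the ternary complex factors among them, 11 of 11 were listed, 2 were above and 3 below under number 4, and the median log2 ratio was -0.09. In the MAP kinase cascade, with 20 of 20 listed, 5 were above and 7 below and the median was 0.00. Single genes of the cascade, named after their values were seen, lay further apart in both directions. The mean under number 4 was 3.15 times that of the others for Rps6ka1, 0.398 for Rps6ka2 and 0.560 for Rps6ka5. The largest label differences were those of Elk3, a ternary complex factor that can repress (0.49 ± 0.30, SE, log2), and Atf1, a CREB relative (0.31 ± 0.22), and in the cascade those of Hras (0.29 ± 0.21) and Mapk3, which encodes ERK1 (-0.28 ± 0.19). None was called.

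The phosphatases that act beside Dusp1 had separate profiles. Of 8 genes 7 were listed, 5 were at least 1.5 times higher under number 4 and above all other libraries (7.76% of all genes), and the median log2 ratio was 0.87. The remaining pair, Dusp6 and Dusp7, which act on ERK in the cytoplasm, had the largest label differences of the list. Dusp6 was at 811 normalized counts in WT 1, 1463 in WT 4, 4539 in p75KO 1, 2677 in p75KO 2 and 1374 in p75KO 4. p75KO 1 and p75KO 2 were the high libraries, as with Arc and Plk2, and the log2 differences of Dusp6 (1.23 ± 0.57, SE) and Dusp7 (0.95 ± 0.42) were not called. Dusp1, the member, lay nearer to the first 5 in order but with a smaller ratio.

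The heat shock genes were read beside the members as a list of stress genes. All 12 were listed, and 9 had a mean of at least 50. Of these 9, 4 were above and 2 below under number 4 (23.0% and 22.0% of all genes). By at least 1.5-fold 0 of the 9 were above (7.76% of all genes). Hspa1a, Hspa1b and Hspb1 are named because their means, 39.3, 36.7 and 12.4 normalized counts, left them out of these counts. Each was above in both libraries numbered 4, and the ratios of the means were 2.13, 1.78 and 1.54. Among the 9 the chaperone genes Hspd1 and Hspa8 had the largest label differences, 0.47 ± 0.33 and 0.40 ± 0.30 (SE, log2), and were not called. Over the 6 lists 91 of 95 genes were listed, limma called 0 of them, and 0 had a p under 0.05 before adjustment.

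**Figure D4:**
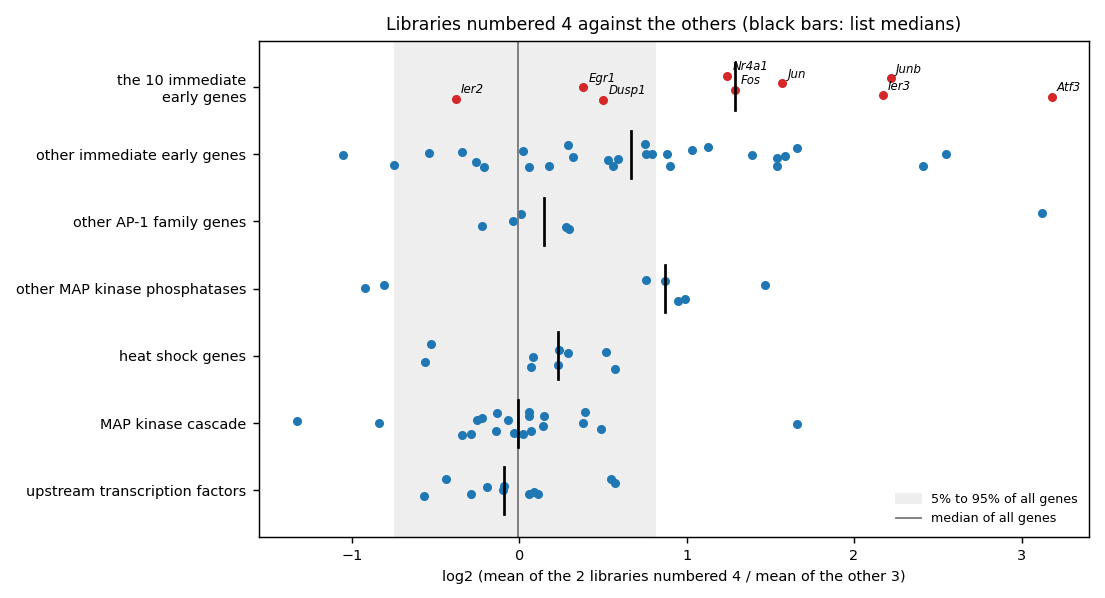
Log2 ratio of the mean of the 2 libraries numbered 4 to the mean of the other 3 (horizontal axis) for genes with a mean of at least 50, by list, with red points for the members, blue for other lists, black bars for list medians, and the median and central 90% of all genes in grey. Of the members Atf3, Junb, Ier3, Jun, Fos and Nr4a1 lie to the right of the grey band, and the points of the upstream transcription factors lie within it. Of the MAP kinase cascade Rps6ka1 lies to its right, and Rps6ka2 and Rps6ka5 to its left.

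Levels of the members were ordered per length by TPM, a share of all transcripts, the unit in which genes of different length can be compared. Jun had the highest mean (121 ± 73.1 TPM, SD over all libraries, n = 5), followed by Egr1 (104 ± 31.4), Ier3 (51.1 ± 40.8), Fos (31.4 ± 16.5), Junb (23.6 ± 19.8), Ier2 (22.8 ± 6.88), Atf3 (11.8 ± 12.4), Nr4a1 (11.1 ± 5.58), Dusp1 (10.5 ± 2.27) and Fosb (0.272 ± 0.348). The ranges of all neighbours in this order overlapped except those of Dusp1 and Fosb. The order also turned between libraries, since Jun was above Egr1 in 3 of 5 libraries and Junb above Ier2 in 2 of 5. Egr1 was above Ier3, Fos above Junb and Dusp1 above Fosb in all 5.

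The makeup of the Fos and Jun pool differed between the libraries in the same way. Summed over Fos, Fosb, Fosl1, Fosl2, Jun, Junb and Jund, it came to 188 TPM in WT 1, 398 in WT 4, 145 in p75KO 1, 210.3 in p75KO 2 and 481 in p75KO 4. The Fos family made up 26.5% and 28.3% of this pool under number 4 and between 13.8% and 18.8% elsewhere, with no overlap. Fos itself held a nearly constant share, between 10.3% and 11.9%, whereas that of Fosl2 was 15.0% and 15.2% under number 4 and 2.40% to 6.93% elsewhere. Jund, the subunit that is present without a stimulus, ranged from 44.3 to 90.0 TPM with no order by number, so that its share was 16.8% and 16.9% under number 4 and 30.6% to 47.5% elsewhere. Jun held 29.1% in WT 1 and 38.0% to 49.3% in the other libraries.

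**Figure D5:**
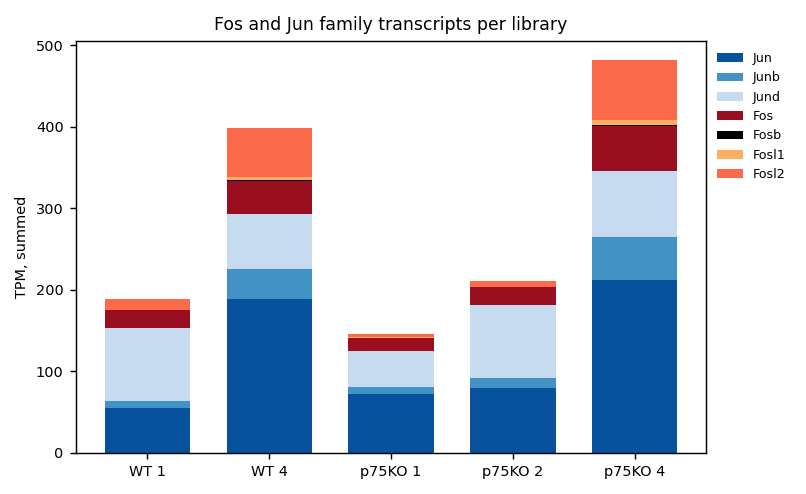
TPM of the 7 Fos and Jun family genes (vertical axis, stacked from 0) in each library, with Jun genes in blue and Fos genes in red, orange and black. The bars of WT 4 and p75KO 4 reach 398 and 481 TPM, through Jun, Junb, Fos and Fosl2, while the band of Jund, 66.9 and 81.2 TPM there, lies within its range in the other libraries.

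Likeness of profiles was measured as the root mean square difference of the centred log2 values over the 5 libraries, among genes with a mean of at least 50. Fos and Nr4a1 were nearest to each other among the members, at 0.12, and Junb and Ier3 at 0.17. Farthest from any other member were Atf3 (0.75 from Ier3), Fosb (0.55 from Ier3) and Ier2 (0.43 from Egr1). For Fos the nearest other genes were Zbtb7b (0.12), Rgs17 (0.13) and Rsph3b (0.14), and for Nr4a1 they were Micall2 (0.05), Sap30 (0.07) and Pde4d (0.11). Egr1 had Rhoj (0.05), Lyar (0.05) and Nup62 (0.07) nearest, and Lyar, for example, was at 212, 498, 501, 457 and 534 normalized counts in WT 1, WT 4, p75KO 1, p75KO 2 and p75KO 4. These genes were picked among 10786 over 5 libraries and the values are a description only.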

How the data were processed

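RNA-Seq data of 5 libraries of mouse NSPCs, 2 labelled WT and 3 labelled p75NTR-/-, were analysed in 1 table, with 0 columns of per-sample values left unused. The authors made stranded mRNA libraries, quantified them with Salmon 0.10.2 against GRCm38.p6 and normalized with DESeq2 1.22.0 in R 3.6.1 (submitters' processing notes). The deposited signal is, library by library, a count over the size factor with 0.5 added. After subtraction of 0.5, 100% of the low values in each library came out as whole multiples of 1 step (tolerance 0.1 counts), which gave the counts back. The authors' TPM columns, a deposited score named TPM in the header, were used for order and shares only. The authors' log2 fold changes, p-values and mean over samples were not used. The 303 repeated lines were dropped, and 22227 transcripts were summed to 12588 symbols or identifiers (12572 symbols). Coordinates are those of GENCODE vM21 on the build of the table.

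limma 3.58.1 was run on log2(gene sum + 1) of all genes, without covariate, as the values are normalized. edgeR 4.0.16 (quasi-likelihood, TMM) and DESeq2 1.42.0 were run on the recovered counts as alternatives, in R 4.3.3, and each was tested on simulated data. Of 50 genes changed 2-fold, limma recovered 2, edgeR 13 and DESeq2 10, and of 50 changed 4-fold 45, 49 and 47. The simulation gave every gene the same dispersion (spread beyond counting error) and no difference by replicate number, unlike the members. The members, gene lists, tests and named genes were chosen with earlier results of these data known. Named were all members, of each pathway list the genes called and, among genes with a mean of at least 50, the 2 with the largest label difference, and the 3 genes most like Fos, Egr1 and Nr4a1. Genes named otherwise are marked in the text. Replicate numbers 1 and 4 are shared by both labels. With 11688211 to 14452396 counts per library, 3 counts, the limit that a count of 0 allows, came to between 2.94 and 3.60 normalized counts, which covers counting error only.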

Additional observations from a re-analysis of the deposited data

How the results depend on the processing

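None of the 10 members and none of the pathway genes was called under any alternative run. The libraries numbered 4 stood above the others in 8 of 10 members also with TPM or TMM scaling. Without WT 1 the count was 8 of 10 too, but leaving a library out of the others could not have lowered it. The count of genes called in the whole table, 1 in limma, was 0 in edgeR (260 with an unadjusted p under 0.05), 7 in DESeq2, 0 with the replicate number as a block (replicate block), 0 with TPM, and 0 to 1 when 1 library was left out, with 0 without WT 1 and without p75KO 2. The samples of number 1 and number 4 deviated together (r = 0.26 and 0.48 over 10786 genes), but 2 pairs and an unexplained number do not establish a pairing. The replicate block gave the members the same log2 differences as leaving p75KO 2 out, since that library is alone under its number. The direction of several members, all far from the threshold, turned. In edgeR and in DESeq2 the log2 difference was -0.01 for Jun, 0.11 for Junb, -0.09 for Atf3 and 0.07 for Nr4a1, with TPM it was -0.02 for Atf3, and with the replicate block 0.30 for Junb, 0.11 for Nr4a1 and 0.28 for Ier3. With 1 library left out it ranged from -0.72 to 0.25 for Fos, -2.23 to 1.40 for Fosb, -0.83 to 0.95 for Jun, -1.06 to 1.01 for Junb, -1.83 to 1.94 for Atf3, -0.53 to 0.50 for Nr4a1, -1.25 to 1.19 for Ier3 and -0.20 to 0.60 for Dusp1. Egr1 (0.07 to 1.30) and Ier2 (0.40 to 0.74) kept their direction, and the median of the members ranged from -0.72 to 0.98. The cause of these shifts was not tested beyond the library left out. Depth limited Fosb, with at most 11 counts in a library.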
